A study of Mus musculus with 9 samples.

Results

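In mouse heart ventricle, 403 of 16884 regions (2.39%) carried almost no NR4A2 chromatin immunoprecipitation (ChIP) signal in control hearts and clear signal in hearts in which NR4A2 had been switched on. They were chosen by 2 limits on measured values. The mean over the 3 NR4A2 hearts had to be at least 30 CPM, and the mean over the 3 control hearts had to be under 8 CPM. Here CPM is the read count of a region scaled closely to the total reads in regions of its library. These near-silent regions had a median of 36.7 CPM in NR4A2 hearts and 5.84 CPM in control hearts. The levels were fixed by the choice, so they are a description and no test of this contrast is given for them. Where the regions lie, which genes they accompany and how they are spaced did not enter the rule. All 6 mice did enter it, so left-out mice are read over sets chosen anew from the same 16884 regions, without them in the limits.

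The study asked where NR4A2 binds in the heart after induction in cardiomyocytes. The NR4A2 group comprised 3 Nr4a2-icTg mice, which carry a conditional Nr4a2 knock-in at ROSA26 together with Myh6-cre/Esr1, a tamoxifen-activated Cre recombinase driven by the promoter of the cardiomyocyte gene Myh6. The controls were 3 littermates with the inducible Cre alone (aMHC-MerCreMer). Both groups received 1 intraperitoneal dose of tamoxifen at 40 mg/kg at 8 to 9 weeks of age and were examined at day 3, so Cre and tamoxifen were shared by all 6 mice. Induction was limited to cardiomyocytes by the promoter, whereas chromatin came from ventricle tissue with all its cell types, and a change in few cells cannot be told apart from a smaller change in many. Each ChIP used 30 µg of chromatin, 5.5 µg of NR4A2 antibody (9D12), and fly chromatin with a fly histone antibody as a spike-in.

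NR4A2 (NURR1) is an orphan nuclear receptor of the NR4A family, whose activity is set mainly by how much of the protein is made, since it is not known to need a natural ligand. It binds DNA as a monomer at the NBRE, an extended half-site with the letters AAAGGTCA, and can act at sites far from promoters. The family is best known for rapid induction by stress and hormones, for dopamine neuron identity, and for metabolic genes in liver and muscle.

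Reads in regions numbered 1035856, 637635 and 794382 in NR4A2 hearts 1, 2 and 3, and 984905, 1027394 and 549700 in control hearts 1, 2 and 3. A single read was worth 0.955, 1.58 and 1.26 CPM in the NR4A2 libraries and 1.02, 0.973 and 1.81 CPM in the control libraries. Control heart 3 was the shallowest library, so its low values are the coarsest. Across all regions the median difference between NR4A2 and control hearts was −0.06 on the log2(CPM + 1) scale. The scaling makes the total signal in regions nearly equal in all libraries, so a genome-wide shift would not show in this value. By limma's moderated test over all 16884 regions with Benjamini-Hochberg adjustment, 2475 (14.7%) were higher and 536 (3.17%) were lower in NR4A2 hearts.

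Sequence could be shown for the near-silent regions that touch a promoter window of the RefSeq annotation (GRCm38.p6; 250 bases before to 50 after a gene's start). Only 2 of the 403 did so, and both windows belong to long noncoding RNA genes. They are shown because they are the regions whose bases can be read against the NR4A2 motif. Capitals mark matches to the 6-letter half-site AGGTCA and to the AP-1 element TGACTCA, found by a search of both strands.
Gm40403 (chr12:40248107-40248334, minus strand): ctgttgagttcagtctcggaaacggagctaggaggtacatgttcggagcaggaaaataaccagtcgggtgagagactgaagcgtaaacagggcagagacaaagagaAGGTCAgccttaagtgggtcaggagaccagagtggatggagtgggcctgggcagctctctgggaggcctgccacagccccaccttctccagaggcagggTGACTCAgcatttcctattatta
Gm30327 (chr1:153990967-153990991, plus strand): aacagtcaaaggggactgtcccact

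The Gm40403 region, 228 bp long, lay wholly inside the window. Its half-site began at base 107 of the printed strand and its AP-1 element at base 206. The letters GAAGGTCA from base 105 differ from the NBRE by A1G, where positions are counted from the 5′ end of the NBRE and its base is given first. The region held 40.1, 41.0 and 32.8 CPM in NR4A2 hearts 1, 2 and 3, against 7.17, 5.84 and 7.24 CPM in control hearts 1, 2 and 3. The groups were far apart and each was tight. For Gm30327 the printed 25 bases are the end of a 225 bp region, and they hold none of the motifs searched. That region had 23.9, 39.4 and 35.3 CPM in NR4A2 hearts and 1.02, 9.73 and 7.24 CPM in control hearts, again without overlap.

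Motif letters are common enough that a single match carries little weight. Of 32851 promoter windows (none from chromosome 18), 16.3% hold the half-site and 1.51% the full NBRE, which contains it. The NBRE with at most 1 mismatch is in 23.6%. The AP-1 element, searched as TGACTCA and with G in place of its central C, is in 5.2%. Among the 130 windows that touch a region called higher in NR4A2 hearts, 32.3% held the half-site, 3.85% the AP-1 element and 16.2% the full NBRE. Among the 8415 windows that touch any region the shares were 11.3%, 2.82% and 1.16%, so the AP-1 share lay below that of all windows and above that of windows with a region. The GATA element AGATAA is in 11.2% of all windows and the TEAD element GGAATG in 14.7%. For MEF2 factors TAAAAATA was searched, together with the form TATTTATA, and 4.3% hold one of them. Neither printed sequence holds any of these last motifs. The bases of the other 401 near-silent regions were not analysed here.

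In each NR4A2 heart the near-silent regions sat near the middle of the range of all regions, while in each control heart they sat at its bottom. Their median was 32.5, 34.7 and 45.4 CPM in NR4A2 hearts 1, 2 and 3, where the median of all regions was 38.2, 39.4 and 41.6 CPM. In control hearts 1, 2 and 3 their median was 6.15, 5.84 and 5.43 CPM, where the median of all regions was 36.9, 37.0 and 36.2 CPM. In reads, the median region had 34, 22 and 36 reads in NR4A2 hearts and 6, 6 and 3 reads in control hearts. Together the 403 regions took 1.42%, 1.5% and 1.89% of the CPM in NR4A2 hearts 1, 2 and 3, and 0.24%, 0.233% and 0.208% in control hearts.

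**Figure D1:**
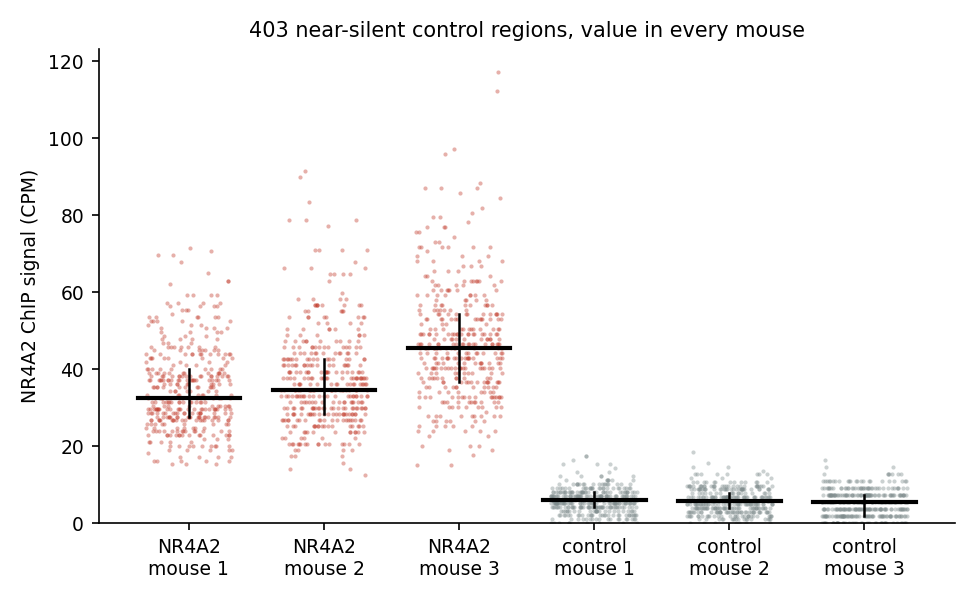
Distribution of NR4A2 ChIP signal (CPM) over the near-silent regions in each of the 6 mice, NR4A2 hearts left and control hearts right, with 1 point per region, a horizontal line at the median and a vertical line over the interquartile range. The medians of 32.5, 34.7 and 45.4 CPM in NR4A2 hearts stand above medians of 5.43 to 6.15 CPM in control hearts.

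Near-silent did not mean empty. No near-silent region was without reads in all 3 control hearts, and 2 had none in 2 of them. Regions with 0 reads numbered 0 in every NR4A2 heart, and 9, 7 and 41 in control hearts 1, 2 and 3, with the most in the shallowest library. The 3 control libraries together held 3 to 23 reads per region, with a median of 15. By the rule every mean difference was positive, and it ran from 1.80 to 4.90 on the log2(CPM + 1) scale with a median of 2.69. As a ratio of group means the difference was 3.86 to 37.9, with a median of 6.81. All 403 passed the limma test (14.7% of all regions were called higher), and all 403 carry an up call in the authors' deposited table (14.9% of all regions). Nothing is read from these counts, since the same contrast chose the regions.

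In 401 of the 403, every NR4A2 heart was above every control heart. The same held in 19.9% of all regions, but the rule used these values and largely fixed the separation. This limit applies wherever a near-silent region, or a few of them, is said to have groups apart. For 257, the lowest NR4A2 value was at least 3 times the highest control value. The 2 regions with overlap were both carried by control heart 1. A region 72.8 kb outside Ndst4, which encodes a heparan sulfate sulfotransferase, had 17.2, 26.8 and 49.2 CPM in NR4A2 hearts and 17.4, 2.92 and 1.81 CPM in control hearts. Within Gas2, a gene for a cytoskeletal linker protein, the values were 15.3, 22.1 and 52.97 CPM in NR4A2 hearts and 17.4, 0.973 and 3.62 CPM in control hearts.

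**Figure D2:**
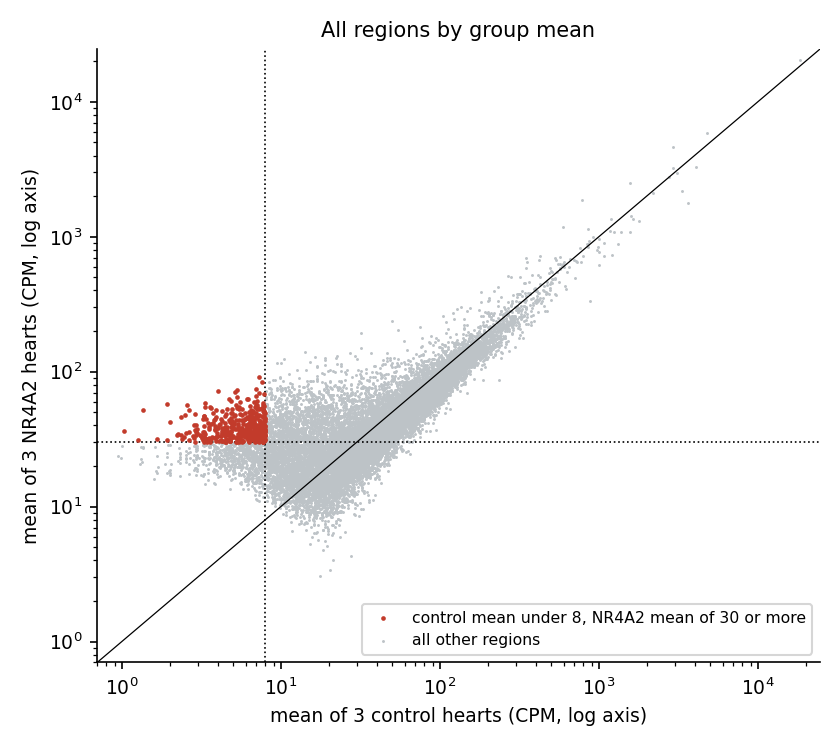
Mean NR4A2 ChIP signal of every region in NR4A2 hearts (vertical, CPM, log axis) against control hearts (horizontal, CPM, log axis), with the 403 near-silent regions coloured and the 2 limits of 30 and 8 CPM drawn as dotted lines; the solid line marks equal means. The coloured regions are a corner of a continuous cloud, not a separate group.

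The limits cut through a continuum. Of 1142 regions with a control mean under 8 CPM, 403 (35.3%) reached 30 CPM in NR4A2 hearts, 529 lay at 20 to 30 CPM, 210 at 10 to 20 CPM and none lower. A region within Cmtm4 was just inside the control limit with 36.1 CPM in NR4A2 hearts and 7.997 CPM in control hearts. Just outside it was a region within Lpin1, with 36.8 CPM in NR4A2 hearts and 8.003 CPM in control hearts. At the other limit, a region within Ulk1, the kinase that starts autophagy, was just inside with 30.02 CPM in NR4A2 hearts and 6.34 CPM in control hearts. A region within Arhgef6 was just outside with 29.9 CPM in NR4A2 hearts and 4.69 CPM in control hearts. Turned round, the same limits chose nothing: 0 regions had an NR4A2 mean under 8 CPM and a control mean of at least 30 CPM. The 52 regions with an NR4A2 mean under 8 CPM had control means of 11.5 to 27.5 CPM.

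To read the regions in mice that took no part in choosing them, the rule was applied to 2 mice of each group and the third of each was read out. Left-out NR4A2 hearts kept most of the signal, and left-out control hearts stayed low but somewhat above the limit in many regions. With mouse 1 of each group left out, 559 regions were chosen, and their median was 29.6 CPM in NR4A2 heart 1 and 7.17 CPM in control heart 1. With mouse 2 left out, 468 were chosen, at 33.1 CPM in NR4A2 heart 2 and 6.81 CPM in control heart 2. With mouse 3 left out, 350 were chosen, at 44.1 CPM in NR4A2 heart 3 and 7.24 CPM in control heart 3. The left-out NR4A2 heart was above the left-out control heart in 98.9%, 99.6% and 100% of the chosen regions for mice 1, 2 and 3, against 50.1%, 48.8% and 51.1% of all regions.

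The share that met each limit anew differed between mice. In the left-out NR4A2 heart, 46.5%, 54.3% and 81.1% of the chosen regions reached 30 CPM for mice 1, 2 and 3. In the left-out control heart, 56.2%, 62.8% and 58.6% were under 8 CPM. The median log2(CPM + 1) difference between left-out hearts was 1.99, 2.06 and 2.58 for mice 1, 2 and 3, against 0.00132, −0.02 and 0.02 over all regions. The 3 readouts share mice, so they are given without a test.

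**Figure D3:**
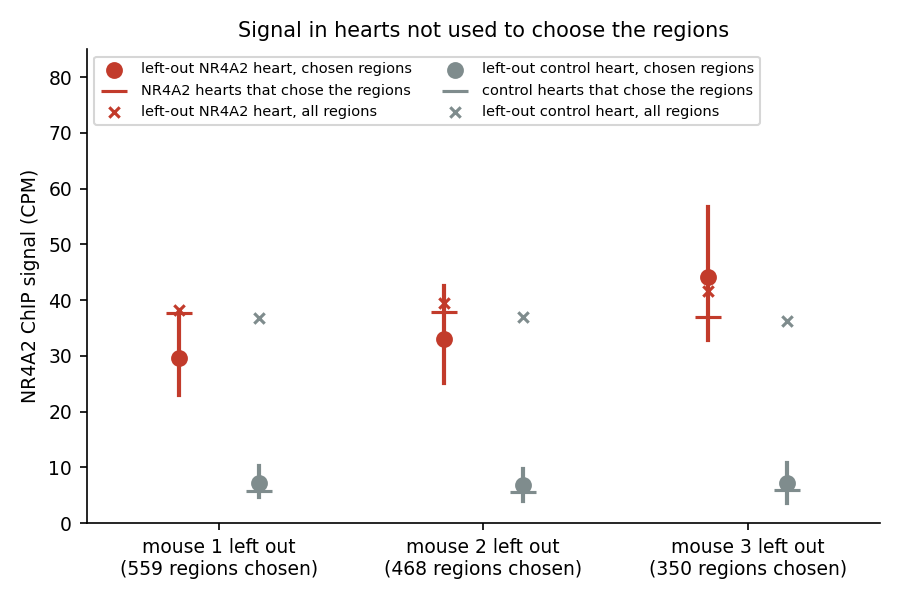
NR4A2 ChIP signal (CPM) of the left-out NR4A2 heart (left of each pair) and the left-out control heart (right of each pair) over regions chosen in the other 2 mice of each group. Points are medians, vertical lines interquartile ranges, dashes the medians of the hearts that chose the regions, and crosses the medians of all regions in the left-out heart. NR4A2 medians are 29.6, 33.1 and 44.1 CPM for mice 1, 2 and 3, and control medians 7.17, 6.81 and 7.24 CPM.

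NR4A2 heart 3 had the most signal at most of these regions. It was the highest NR4A2 heart in 253 (62.8%), heart 2 in 94 (23.3%) and heart 1 in 56 (13.9%). The same heart was the highest in 59.4% of the 2072 other regions called higher, and in 34.8% of the 13873 regions with no call. On the log2 scale, heart 3 exceeded the mean of hearts 1 and 2 by a median of 0.36 in the near-silent regions, 0.28 in the other higher regions and −0.01 in the uncalled ones. The largest share of signal in 1 heart was in a region within Osbpl3, an oxysterol-binding protein gene, with 20.1, 15.8 and 63.1 CPM in NR4A2 hearts and 4.10, 4.87 and 5.43 CPM in control hearts. Regions within C2cd5 and Rell1 followed, with 63.1 CPM each in heart 3 and 17.3 to 22.9 CPM in the other NR4A2 hearts. The median coefficient of variation over the 3 NR4A2 hearts was 26.9% in the near-silent regions, 24.5% in the other higher regions and 22.6% in the uncalled ones.

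Near-silent regions lay far from gene ends, where an end is either boundary of the gene's span, its start included. Only 6 (1.49%, 95% Wilson interval 0.684 to 3.21%) were within 1 kb of the end of a protein-coding gene, against 8127 (48.1%) of all regions. A further 79 (19.6%) were at 1 to 10 kb, 211 (52.4%) at 10 to 100 kb and 107 (26.6%) beyond 100 kb. Their median distance to a gene end was 34.8 kb, against 1.30 kb over all regions. The interval covers counting error over regions only.

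The distance was also larger than in the nearest groups for comparison. Of the 2072 other regions called higher in NR4A2 hearts, 182 (8.78%) were within 1 kb of a gene end, and their median distance was 23.4 kb. Of the 739 regions that met the control limit but not the NR4A2 limit, 26 (3.52%) were within 1 kb, with a median of 28.2 kb. Among 7859 other regions of like mean signal over the 6 mice and like length, a group chosen after the data were seen, 40.6% were within 1 kb and the median was 2.80 kb. The 739, which share the low control signal, were thus also far from gene ends. Distances to annotated start sites, available for 388 near-silent regions, gave 6 (1.55%) within 1 kb and a median of 30.2 kb.

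**Figure D4:**
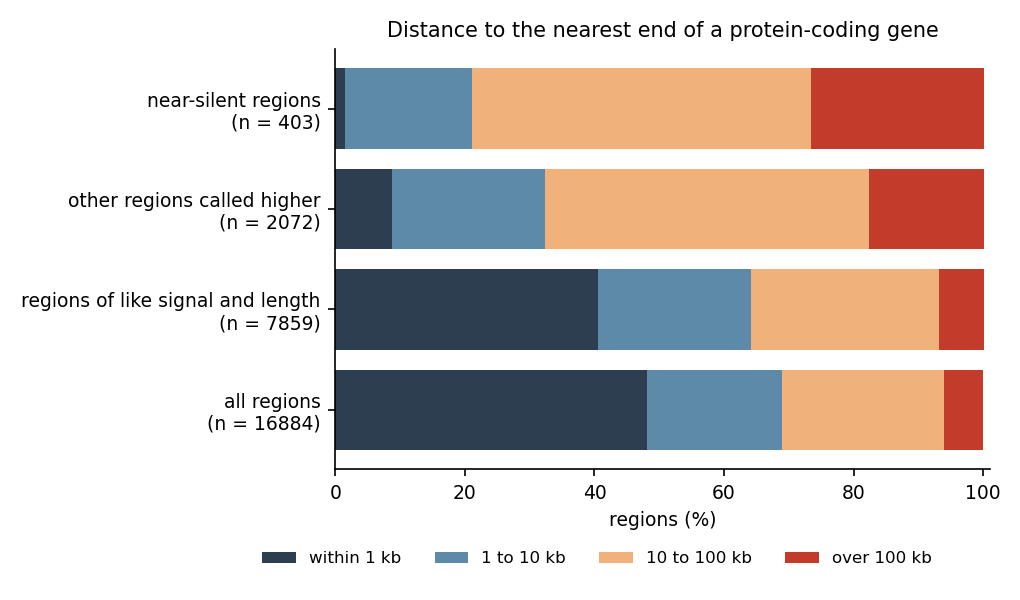
Share of regions (percent) by distance to the nearer end of a protein-coding gene, in 4 distance classes, for near-silent regions, other regions called higher, regions of like signal and length, and all regions. The class within 1 kb holds 1.49% of near-silent regions and 48.1% of all regions.

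The larger part lay inside a gene. A total of 218 (54.1%) fell at least partly within a protein-coding gene, against 60.8% of the other higher regions and 78.5% of all regions. Another 148 (36.7%) were over 10 kb outside any such gene, against 28.2% of the other higher regions and 11.9% of all regions. The 739 regions that met the control limit alone were close to the near-silent ones, with 58.7% within a gene and 30.2% over 10 kb outside. Inside genes they were spread along the whole body. For the 179 within exactly 1 gene of known strand, the median place was 51.4% of the way from the start, against 5.15% for all 9898 such regions. In 4 equal stretches of the gene, counted from its start, lay 22.3%, 25.7%, 31.3% and 20.7% of them, against 64.3%, 12.7%, 11.1% and 11.9% of all such regions. Place along the gene was not compared with the other higher regions or with the 739, so it is not shown to be particular to near-silent regions. Exons and introns were not told apart, because the annotation used gives gene spans only.

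The most isolated region was 912 kb outside the nearest protein-coding gene, Nr2f1, which encodes the nuclear receptor COUP-TFI (chr13:79111286-79111798). It held 43.0, 45.7 and 55.5 CPM in NR4A2 hearts and 4.10, 5.84 and 5.43 CPM in control hearts. All 3 NR4A2 hearts were well above all 3 controls there. The next most isolated regions were 899 kb outside Tmprss15 and 699 kb outside Trim52. A nearest gene is given as a landmark, with no statement that the region acts on it.

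Of the 6 regions within 1 kb of a gene end, the strongest was 740 bp outside Lpcat2b (chr5:107435779-107436220), with 50.6, 34.7 and 35.3 CPM in NR4A2 hearts and 6.15, 8.76 and 0 CPM in control hearts. Next to Ppp1r3d, which encodes a subunit that targets protein phosphatase 1 to glycogen, the values 584 bp outside the gene were 31.5, 37.8 and 42.9 CPM in NR4A2 hearts and 7.17, 9.73 and 5.43 CPM in control hearts. Near an end of Nf1, the Ras regulator neurofibromin, NR4A2 hearts had 38.2, 29.9 and 30.3 CPM and control hearts 6.15, 10.7 and 3.62 CPM. The other 3 were at Vkorc1l1, Plxdc2 and, 997 bp outside, Pcyox1. In all 6 the groups did not overlap, as in 401 of the 403 near-silent regions, which the rule largely fixed.

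Near-silent regions stood further from other regions than regions at large did. Their length was 201 to 794 bp with a median of 308 bp, between the 392 bp of the other higher regions and the 247 bp of the 739 regions that met the control limit alone, and against 438 bp over all regions. The longest lay in Agbl1 (794 bp), near Rnf138 (669 bp) and near Myog (663 bp), the skeletal muscle regulator myogenin. The Myog region, 12.5 kb outside the gene, had 51.6, 45.7 and 61.8 CPM in NR4A2 hearts and 3.07, 10.7 and 0 CPM in control hearts. The median distance to any other region was 35.5 kb, against 11.4 kb over all regions. To a region of at least median control signal (37.0 CPM) it was 126 kb, against 29.3 kb over all regions, and 7.2% had such a region within 10 kb, against 31.5% of all regions. These distances were not compared with those of the other higher regions or of the 739.

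Distances among the near-silent regions depend on how few they are, and no background was computed for them. The median distance to another near-silent region was 1674 kb. Another was within 10 kb for 12 (2.98%), and any region at all for 90 (22.3%). Whether they lay closer together than their number alone gives was not tested. The closest pair lay 262 bp apart within Sema5b, a semaphorin gene of axon guidance. Its members averaged 32.8 and 38.6 CPM in NR4A2 hearts, and 3.89 and 4.44 CPM in control hearts. A pair near Zbtb40, 4.45 kb apart, averaged 63.2 and 51.2 CPM in NR4A2 hearts. By chromosome, the share of regions that were near-silent ran from 1 of 254 (0.394%) on X to 25 of 666 (3.75%) on chromosome 12, with at least 1 on each of the 20.

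The strongest 20 spanned means of 57.2 to 91.8 CPM in NR4A2 hearts and 1.94 to 7.80 CPM in control hearts. Of the 20, 0 had overlapping groups, where 401 of all 403 near-silent regions had none by a rule that largely fixed this. At the top was a region 42.3 kb outside Dock1, a gene for an activator of the GTPase Rac (chr7:134627958-134628346), with 71.6, 91.4 and 112 CPM in NR4A2 hearts and 6.15, 6.81 and 9.05 CPM in control hearts. Usp25, a deubiquitinase gene, was the nearest gene of a region 117 kb away (chr16:76896443-76897103) that held 69.7, 77.2 and 69.4 CPM in NR4A2 hearts and 0, 4.87 and 7.24 CPM in control hearts. Irs1, which encodes the insulin receptor substrate, was 64.3 kb from a region (chr1:82168340-82168759) with 52.5, 70.9 and 88.3 CPM in NR4A2 hearts and 5.12, 6.81 and 3.62 CPM in control hearts. Of the 20, 12 were outside genes and 8 within, among them Ano4, of the anoctamin family, Eif5a2, a translation factor, and Bmper, a secreted modulator of BMP signals.

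**Figure D5:**
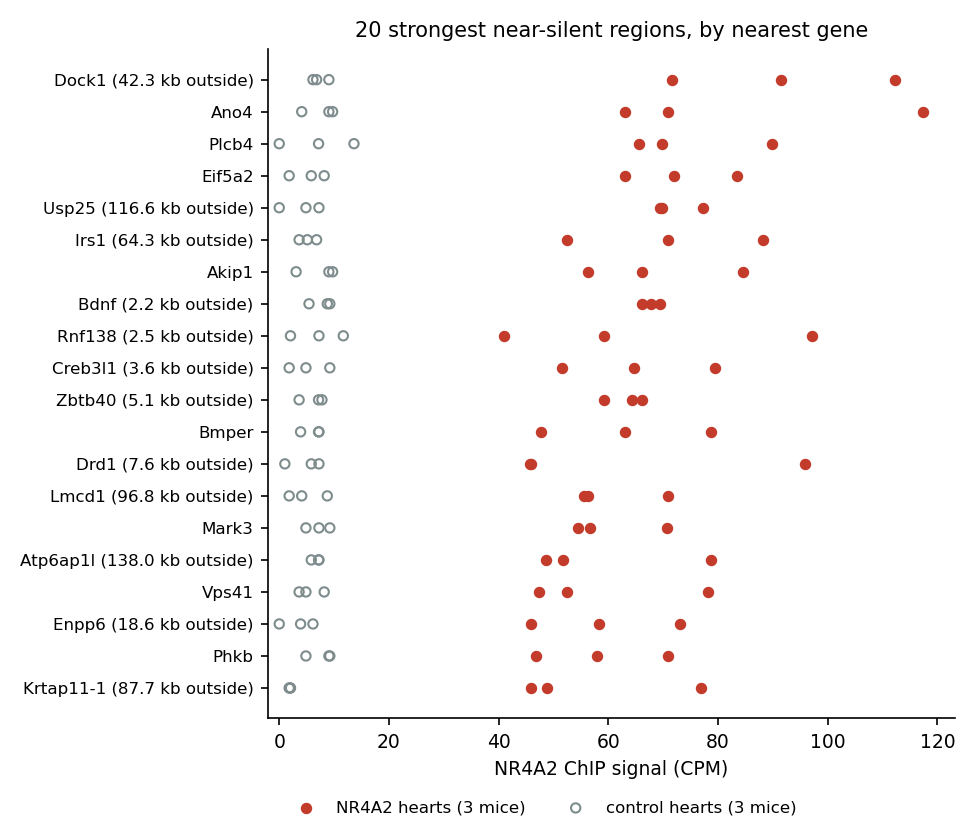
NR4A2 ChIP signal (CPM) in each mouse at the 20 near-silent regions with the highest NR4A2 mean, named by nearest gene with the distance where the region is outside it. Filled points are NR4A2 hearts and open points control hearts, and no NR4A2 point lies as low as any control point of the same region.

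The lowest control signal was seen where the 3 control libraries held 3 to 5 reads in all. A region within Tenm4, a teneurin adhesion gene, had 76 reads in NR4A2 hearts and 3 in control hearts, a depth-adjusted ratio of 26.2 with an exact 95% counting interval of 8.62 to 130. Within Lrrc3 the reads were 90 in NR4A2 hearts and 3 in control hearts (ratio 31.0, interval 10.3 to 153). A region 87.7 kb outside Krtap11-1, a hair keratin-associated gene, had 140 reads in NR4A2 hearts and 5 in control hearts (ratio 28.9, interval 12.1 to 90.5). These regions were picked for their low control counts, and the intervals cover counting error alone, not that choice, so they are no test of the difference. The largest fitted difference, 4.90 ± 0.71 (SE) on the log2(CPM + 1) scale, was 11.5 kb outside Arid1b, a chromatin remodeller gene, with 38.2, 67.8 and 49.2 CPM in NR4A2 hearts and 4.10, 0 and 0 CPM in control hearts.

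By gene, 255 near-silent regions touched the span of at least 1 protein-coding gene extended by 10 kb, and 148 touched none. This gave 276 genes, or 2.48% of the 11151 genes with any region. These genes were long, with a median of 93.4 kb against 23.1 kb. Of genes under 25 kb 0.919% had a near-silent region, of those of 25 to 100 kb 2.30%, and of those of at least 100 kb 9.23%. For 74 of the 276, the near-silent region was the only region of the gene.

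Of the 276 genes, 3 had 3 near-silent regions and 8 had 2. Magi2, a synaptic and junctional scaffold gene of 1485 kb, had 3 among its 5 regions, with NR4A2 means of 30.2 to 40.3 CPM and control means of 6.67 to 6.91 CPM. Rgs6, a regulator of G protein signalling, had 3 among 8. Creb5, a CREB-family transcription factor gene, had 3 among 6, and its other 3 regions were also called higher in NR4A2 hearts. Its strongest held 48.7, 39.4 and 27.7 CPM in NR4A2 hearts and 4.10, 8.76 and 5.43 CPM in control hearts, without overlap. Sdk1, a cell adhesion gene, had 2 among 3 and Pde1c, a calcium-dependent phosphodiesterase gene, 2 among 4. The other 6 genes with 2 ranged from Tmcc2, of 35.6 kb, to Ctnna3, of 1574 kb.

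The 276 genes had 534 other regions, of which 124 (23.2%) were called higher and 9 (1.69%) lower by limma. Over all 14617 other regions assigned to a gene, 10.2% were higher and 3.38% lower. Away from gene ends (over 1 kb) the figures were 118 of 377 higher (31.3%) at these genes, against 20.1% of 6496. A region within 1 kb of a gene end was present at 118 of the 276 (42.8%), against 73.9% of all genes with a region. Where a gene had more than 1 region of this kind, the 1 with the most control signal was taken, which favours the control median. The regions taken had a median of 49.8 CPM in NR4A2 hearts and 56.5 CPM in control hearts. They were called higher at 4 of the 118 genes (3.39%) and lower at 6 (5.08%). Among all 8239 genes with such a region the shares were 1.43% higher and 4.33% lower. The higher share thus lay above that of all genes, but it rests on 4 genes, and nothing is read from these counts. These shares are not adjusted for gene length.

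Among the signalling genes, near-silent regions accompanied 6 of the 33 Gq, adrenergic and cAMP pathway genes that had a region, a list of long genes with a median of 136 kb. Plcb4, the phospholipase C that acts below Gq-coupled receptors, held 69.7, 89.8 and 65.6 CPM in NR4A2 hearts and 7.17, 13.6 and 0 CPM in control hearts. All 3 NR4A2 hearts were far above the highest control, a separation that the rule largely fixed. The others were Creb5, Pde4d, a cAMP phosphodiesterase, Prkca, protein kinase C alpha, Ednra, the endothelin A receptor, and Adcy5, a cardiac adenylyl cyclase, at 32.3 to 38.6 CPM in NR4A2 hearts and 5.40 to 6.51 CPM in control hearts. Of 27 insulin and AMPK genes with a region, 2 had one: Prkag2, the regulatory subunit of AMP-activated kinase, and Tbc1d4, which governs glucose transporter traffic. The Prkag2 region had 30.6, 42.6 and 87.0 CPM in NR4A2 hearts and 8.20, 5.84 and 7.24 CPM in control hearts, with heart 3 far above hearts 1 and 2.

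Of the 34 genes of glucose and glycogen use with a region, 5 (14.7%) had a near-silent one, and the median length on that list was 20.7 kb. Phkb, the regulatory beta subunit of the kinase that activates glycogen phosphorylase, held 46.8, 70.9 and 58.0 CPM in NR4A2 hearts and 9.22, 4.87 and 9.05 CPM in control hearts. Fbp1 and Fbp2, which encode the liver and muscle forms of the gluconeogenic enzyme fructose bisphosphatase, share 1 region, 2411 bp outside Fbp2 (chr13:62860811-62861122). It held 53.5, 31.5 and 58.0 CPM in NR4A2 hearts and 13.3, 5.84 and 0 CPM in control hearts. In both the groups were apart, which the rule largely fixed. Gbe1, the glycogen branching enzyme, averaged 35.5 ± 7.58 CPM in NR4A2 hearts and 7.26 ± 4.73 CPM in control hearts (SD, n = 3 each). Pdk4, the kinase that turns off pyruvate dehydrogenase, averaged 30.7 ± 10.3 CPM in NR4A2 hearts and 7.39 ± 3.03 CPM in control hearts at a region 2193 bp outside the gene.

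Known NR4A targets of other tissues gave 2 of 10 genes with a region, Fbp1 and Bdnf. Fbp1 counts through the region that it shares with Fbp2, whose nearest gene is Fbp2. The Bdnf region, 2207 bp outside this neurotrophin gene (chr2:109729250-109729588), was the most even of the strongest 20, with 67.8, 66.2 and 69.4 CPM in NR4A2 hearts and 9.22, 8.76 and 5.43 CPM in control hearts. Its difference was 3.00 ± 0.40 (SE) on the log2(CPM + 1) scale. It was the only region assigned to Bdnf. Outside any fixed list, the region 7574 bp from Drd1, the D1 dopamine receptor gene, had 45.8, 45.7 and 95.9 CPM in NR4A2 hearts and 1.02, 5.84 and 7.24 CPM in control hearts.

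Other nuclear receptor genes gave 3 of 31. Rora, the clock-linked orphan receptor, had 2 near-silent regions among 8, the stronger with 49.7, 39.4 and 47.9 CPM in NR4A2 hearts and 9.22, 3.89 and 5.43 CPM in control hearts. Nr2c2, the orphan receptor TR4, averaged 36.9 ± 7.79 CPM in NR4A2 hearts and 6.26 ± 3.86 CPM in control hearts. Nr3c2, the mineralocorticoid receptor, averaged 31.7 ± 17.0 CPM in NR4A2 hearts and 2.37 ± 3.30 CPM in control hearts, with heart 1 the highest at 50.6 CPM. Esrrb, an orphan receptor counted among fatty acid regulators, averaged 30.4 ± 13.2 CPM in NR4A2 hearts and 4.78 ± 1.49 CPM in control hearts, and was the 1 gene of 43 on that list. All 3 NR4A2 hearts were above the controls at each of these, as the rule largely fixed.

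Among contractile and electrical genes, the intercalated disc list had the highest share. There 4 of 28 genes (14.3%) had a near-silent region, among them Ank3, which anchors sodium channels, Ctnna3, the heart's alpha-T catenin, and Tjp1, the junction protein ZO-1. Ank3 was uneven, with 22.9, 78.8 and 36.6 CPM in NR4A2 hearts and 8.20, 0 and 3.62 CPM in control hearts. Of 25 calcium handling genes, 2 (8%) had one: Trdn, the triadin of the calcium release complex, at 32.6 ± 1.81 CPM in NR4A2 hearts and 3.30 ± 3.41 CPM in control hearts, and Cacna1h, a T-type calcium channel, at 35.0 ± 13.4 CPM in NR4A2 hearts and 4.00 ± 3.46 CPM in control hearts.

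Of 38 sarcomere genes, 1 (2.63%, near the 2.48% of all genes) had a near-silent region, Myl7, the atrial light chain. Regions called higher in NR4A2 hearts of any kind were found at 22 of the 38 (57.9%), against 14.2% of all genes with a region. That share was not particular to this list. On the other pathway lists it ran from 4.17% (cell cycle and p53) to 60% (known NR4A targets), with 55.9% for glucose use and 50% for the intercalated disc. The near-silent region 3239 bp outside Myl7 had 40.1, 20.5 and 50.5 CPM in NR4A2 hearts and 4.10, 0.973 and 3.62 CPM in control hearts. Single genes were found on the lists of ion channels (Kcnj5, 1 of 19), cardiac transcription factors (Tead1, 1 of 20), TGF-beta and BMP signalling (Bmpr2, 1 of 19) and autophagy (Ulk1, 1 of 25). None was found among 32 oxidative phosphorylation genes, 14 vascular growth factor genes, 24 cell cycle and p53 genes or 13 inflammation genes. Marker genes of cardiomyocytes (0 of 8), endothelium (0 of 6), fibroblasts (0 of 4), smooth muscle (0 of 3) and immune cells (0 of 2) had none either. ChIP signal at a marker gene is not its expression, so the labelled tissue could not be checked through it. The lists are small, and their counts are read beside the 2.48% of all genes and, where given, the list's gene lengths, with no test. Median lengths were 112 kb for calcium handling, 87.5 kb for insulin and AMPK, 65.9 kb for nuclear receptor and 57.7 kb for intercalated disc genes. They were 26.6 kb for sarcomere genes and 18.5 kb for known NR4A targets. The 8% of calcium handling and 7.41% of insulin and AMPK genes lay below the 9.23% of all genes of at least 100 kb, and above the 2.30% of those of 25 to 100 kb.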

How the data were processed

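Regions, build GRCm38 (mm10), come from the authors' deposited table. The submitters' processing notes name BWA. Not given in the sources used here are the peak caller, the merging of regions and the counter. The deposited values are CPM, whole multiples of 1 read for 100% of values (tolerance 0.001 of a read), with scaling factors beyond reads in regions of 0.991 to 1.01. No spike-in factor is visible in that scaling, and a genome-wide shift would be invisible in such CPM. The authors' deposited log2 fold changes and p-values, per the file headers, were not used beyond their up call. No column was unmatched, and 3 of the 9 samples have no column and were not analysed here.

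Differences are of mean log2(CPM + 1). limma 3.58.1 (R 4.3.3; trend, robust, group only) was fitted on all 16884 regions without a filter, with Benjamini-Hochberg adjusted p under 0.05, and was tested on simulated data. edgeR 4.0.16 and DESeq2 1.42.0 on recovered reads were alternatives. P-values set the group difference against the spread between 3 mice per group, moderated by the spread over all regions.

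Regions were assigned to each RefSeq (GRCm38.p6) protein-coding gene whose span extended by 10 kb they touched. Genes are named by a fixed rule (the strongest 20, up to 3 per list, the 5 with most regions, and the extremes of place, length and evenness), plus examples chosen after their values were seen: Ndst4, Gas2, Nr2f1, Tmprss15, Trim52, Sema5b, Arid1b, Lrrc3, Tenm4, Pcyox1, Prkca, Ednra, Adcy5, Gbe1, Pdk4 and Tjp1. The regions and gene lists were chosen with earlier results of these data known. Some results that the naming rule covers are not reported here.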

Additional observations from a re-analysis of the deposited data

How the results depend on the processing

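The number of near-silent regions, 403, follows the limits: a control limit of 4 or 12 CPM gave 78 or 855, and an NR4A2 limit of 20 or 40 CPM gave 932 or 147. It was 382 with group medians in place of means, 406 without the factor beyond reads in regions, 389 without depth scaling and 321 to 493 leaving out each mouse. Regions called higher (2475) numbered 481 among regions of at least median signal and 1577 to 2332 leaving out each mouse, the lowest without NR4A2 mouse 3. Regions called lower (536) numbered 235 at that signal, 251 with DESeq2 and 270 to 454 leaving out each mouse (270 without NR4A2 mouse 3, 354 without control mouse 3). edgeR on recovered reads called 2530 higher and 543 lower. The cause of these moves was not tested.

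The median difference of 2.69 was 2.04 with a pseudocount of 5 and 2.55 to 2.79 leaving out each mouse. The share within 1 kb of a gene end, 1.49%, was 4.22% at 2 kb, 12.7% at 5 kb, 6.45% with all annotated genes, and 0.68% with an NR4A2 limit of 40 CPM. The same share over all regions was 53.7% at 2 kb, 62% at 5 kb and 53.3% with all annotated genes. Start sites, an alternative chosen after seeing the data, gave 1.55%. Of 549 values for the 61 named regions under the alternatives, 32 moved by over the spread between mice; their direction was largely fixed by the choice of regions. With mouse number as a replicate block, 2540 regions were higher and 580 lower. Same-numbered mice did not deviate together (r of −0.066, 0.061 and 0.033). No pairing by number is seen in these values, which cannot tell whether the design had one. Low reads limit precision: 3 reads were worth 2.92 to 5.43 CPM in control libraries.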
